A study of Saccharomyces cerevisiae with 12 samples.

Results

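The RNA of budding yeast 1.0 and 1.5 h into sporulation was compared with RNA of time zero on the same arrays. The comparison covers 2 samples on 4 arrays, out of 12 samples on 24 arrays in a time course from 0.0 to 6.0 h. Both samples were chosen by their time label alone. The strain was SK1 throughout, which is used for its fast and synchronous sporulation, and no mutant or drug is named in the labels. Each sample was total RNA from a pool of 6 synchronised cultures grown in parallel on a single day, so a pool gives 1 value per time and no spread between cultures. Each sample was hybridised with time-zero RNA on array a, which carried the later RNA in Cy5, and on array b, which carried it in Cy3. Every ratio below is the log2 of the later RNA over time-zero RNA after intensity-dependent (loess) normalisation of each array, with the sign of b arrays turned.

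Sporulation is the response of starved diploid yeast to a non-fermentable carbon source without nitrogen. The regulator Ime1 switches on early meiotic genes, the chromosomes are replicated once, and recombination and chromosome pairing follow before the regulator Ndt80 turns on the genes of the divisions and of spore formation. The first hours therefore span the exit from vegetative growth, entry into premeiotic S phase and the start of recombination.

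The arrays set limits that bear on every value. Each array had 12614 gene spots, 250 blank spots and 192 Arabidopsis control spots. Blank spots were bright in the channel read as Cy5, at 77.3% to 82.5% of the median gene spot on the 4 arrays, against 3.47% to 33.3% in the other channel. A gene counted as above background if its signal passed that of 95% of the blank spots on its array. The later RNA was above background for 34.8% to 69.3% of genes and the time-zero RNA for 37.1% to 70.1%. Pairs of the 4 arrays correlated across genes with r from 0.42 to 0.61, and both arrays of 1 sample with r = 0.42 at 1.0 h and 0.58 at 1.5 h. Genes are not independent replicates. Near-identical gene copies can share signal on such arrays, so values of EFT1 and EFT2, of histone gene pairs and of paired ribosomal protein or glycolytic genes are uncertain as to the copy.

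Of 6237 genes with a value on all 4 arrays, 1116 (17.9%) lay above 0 on every array and 1174 (18.8%) lay below 0 on every array. Among these, 441 averaged above 1 log2 unit and 493 averaged below -1. In a limma fit over all 12 samples in 7 groups of adjacent times, the mean of the 1.0 and 1.5 h samples differed from a ratio of 0 for 471 of 6283 genes at an adjusted p below 0.05. There were 206 rises (3.28% of genes tested) and 265 falls (4.22%), and 448 of the 471 had 1 sign on all 4 arrays. Below, "called", "rose" and "fell" refer to this test, SE is its standard error, and n is 2 samples. The spread behind every SE and call comes from the 4 groups that hold more than 1 sample. Among them is that of 5.0, 5.5 and 6.0 h, where the a and b arrays of 5.0 h and of 6.0 h correlated across genes with r = -0.01 and -0.02 and were averaged all the same. Without those 3 samples limma called 742 genes, 345 rises and 397 falls, and 468 of the 471 were among them.

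That test leaves out the spread of time zero itself. Against the 0.0 h sample, in which time-zero RNA was set against itself, limma called 0 genes, with 568 at an unadjusted p below 0.05, and all 471 genes kept their direction. Without the 1.0 h sample, or without the 1.5 h sample, 0 genes were called, with 778 and 740 at an unadjusted p below 0.05. Median centring in place of loess called 14 rises and 50 falls, and subtraction of the blank-spot median from each channel called 26 rises and 70 falls of 4730 genes. The 471 genes were chosen for ratios away from 0 on these arrays, so their kept direction against the 0.0 h sample is a description. The p-values measure the spread between pools of neighbouring times, which includes real change with time. The ratios are relative within an array, and in bulk RNA fewer cells expressing a gene cannot be told apart from less RNA per cell.

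**Figure D1:**
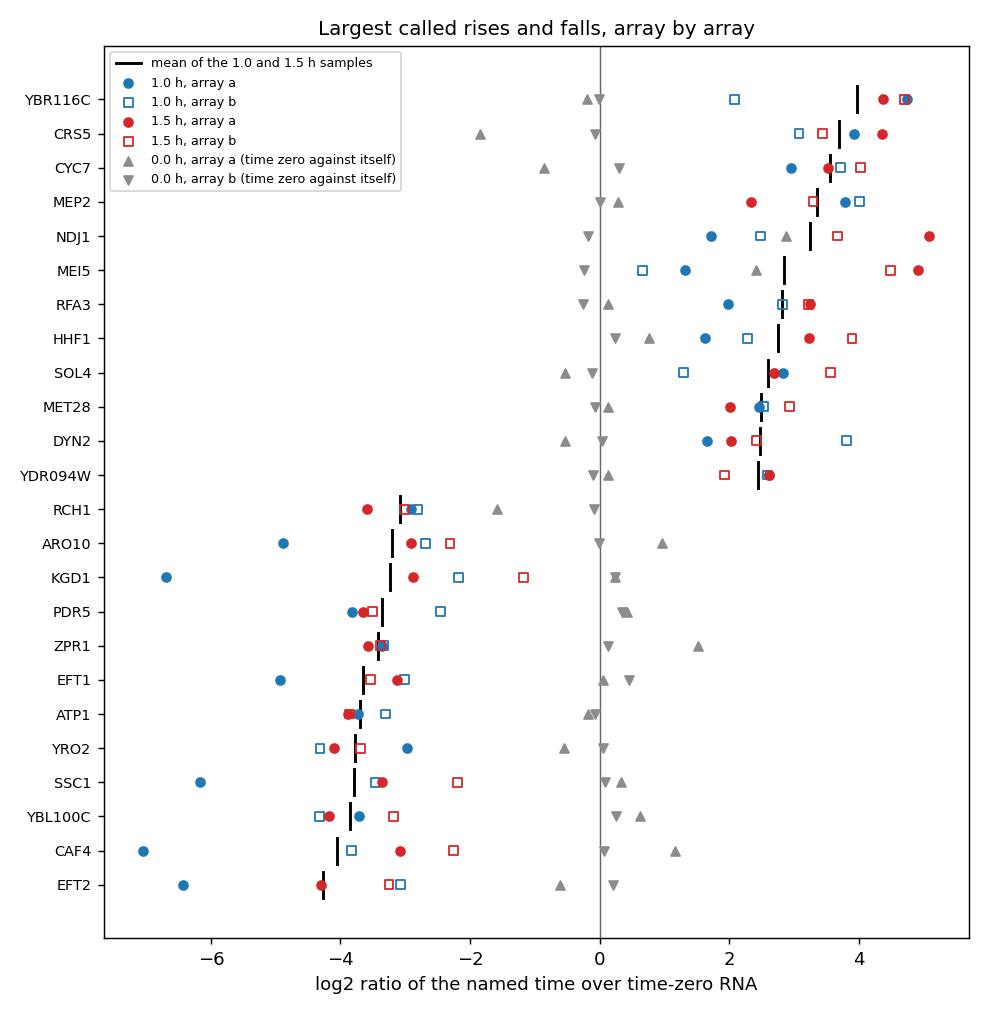
Log2 ratio over time-zero RNA (x axis) of the genes with the largest called changes, 12 rises and 12 falls, with 1 sign on all 4 arrays. Coloured symbols are the 4 arrays, black bars the mean of both samples, and grey triangles the 2 arrays of time zero against itself; the 1.0 h a array gives the lowest value for several falls, such as -7.04 for CAF4.

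The largest falls included both elongation factor 2 genes, a mitochondrial chaperone gene and an ATP synthase gene. EFT2, which encodes elongation factor 2, lay at -6.44 and -3.07 on the a and b arrays of 1.0 h and at -4.30 and -3.25 on those of 1.5 h. Its mean was -4.26 ± 0.54 (SE, n = 2; limma adjusted p = 0.00426). Its near-identical copy EFT1 averaged -3.65 ± 0.37, with values from -4.94 to -3.02. The 4 arrays lay well below the arrays of time zero against itself, which read -0.61 and 0.22 for EFT2 and 0.05 and 0.45 for EFT1.

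CAF4, a WD40-repeat protein that associates with the CCR4-NOT complex and with the mitochondrial fission machinery, averaged -4.05 ± 0.66, with arrays at -7.04, -3.83, -3.08 and -2.25. SSC1, the mitochondrial Hsp70, lay at -6.16, -3.46, -3.35 and -2.19 and averaged -3.79 ± 0.49. For both genes the 1.0 h a array was the lowest by a wide margin, and the other arrays still lay below -2. YRO2, a relative of the heat-shock membrane protein Hsp30, averaged -3.77 ± 0.95 and had its lowest value, -4.32, on the 1.0 h b array. YBL100C, an array identifier without a gene in the reference table, averaged -3.85 ± 0.41, with arrays at -3.71, -4.33, -4.18 and -3.18. Its identifier is next to that of ATP1 (YBL099W), and whether both share signal was not tested.

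ATP1, the alpha subunit of the mitochondrial F1 ATP synthase, lay between -3.89 and -3.31 on the 4 arrays and averaged -3.70 ± 0.53 (limma adjusted p = 0.00538). ZPR1, a zinc-finger protein that assists elongation factor 1A, and PDR5, the ABC transporter of multidrug resistance, had the later RNA above background on 0 of 4 arrays and the time-zero RNA above it on 4. Their measured means were -3.41 ± 0.39 and -3.36 ± 0.40, and the later RNA was at least 7.48-fold lower for ZPR1 and at least 8.34-fold lower for PDR5. Such a bound compares the time-zero signal with the lowest later signal that exceeds background. KGD1, a subunit of 2-oxoglutarate dehydrogenase, averaged -3.23 ± 0.60 but ran from -6.70 to -1.17. ARO10, the phenylpyruvate decarboxylase of amino acid breakdown, averaged -3.20 ± 0.51, and RCH1, a plasma membrane protein of calcium homeostasis, -3.08 ± 0.38. Across all 265 falls, 48 had the later RNA above background on 0 arrays, so their size is known only as a bound. Time-zero RNA passed background on all 4 arrays for 199 of the 265. Some other falls had dim later RNA on part of the arrays, which leaves the size of their means uncertain. SSC1, ATP1 and KGD1 had a later signal beyond the blank-spot cutoff on only 2 of 4 arrays. PCK1, RPL5 and CYS4, named below, had it on 1, whereas ADE17 had it on all 4.

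The translation machinery did not move as a block. Of 87 genes for ribosome assembly, 9 fell (10.3%, against 4.22% over all genes tested) and 1 rose (1.15%, against 3.28%). On all 4 arrays 33 lay below 0 and 3 above, against 18.8% and 17.9% over all genes. The median was -0.35 against 0.01 for all genes tested. NOP58, a core component of box C/D particles, which guide methylation of ribosomal RNA, lay at -3.26, -2.01, -2.56 and -2.83 and averaged -2.66 ± 0.35 (limma adjusted p = 0.00426). Its partner NOP56 and NOP2, a methyltransferase of the large subunit RNA, were above background on 0 of 4 arrays in the later RNA and were at least 5.04-fold and at least 2.26-fold lower. CBF5, which makes pseudouridine in ribosomal RNA, fell by 2.49 ± 0.54 on the log2 scale. DRS1, a helicase of large subunit assembly, was the only called rise, at 1.57 ± 0.38. NOP14 and DBP7 also lay above 0 on all 4 arrays and were not called. RPC40, a subunit shared by RNA polymerases I and III, averaged -1.94 ± 0.36. In the polymerase I and III list 2 of 24 genes fell (8.33%, against 4.22% over all genes tested).

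Of 133 cytosolic ribosomal protein genes, 5 fell (3.76%) and 1 rose (0.752%), with a median of -0.03; neither share was above that over all genes tested (4.22% and 3.28%). The falls included the large-subunit genes RPL4A (-3.06 ± 0.51), RPL3 (-2.95 ± 0.39), RPL5 (-2.08 ± 0.45) and RPL10 (-1.47 ± 0.35). RPL3 lay between -3.46 and -2.60 on all 4 arrays. RPS28A rose, at 1.52 ± 0.40. Of 65 mitochondrial ribosomal protein genes, 2 fell (3.08%), MRP7 and MRPL1, and the median was -0.06.

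**Figure D2:**
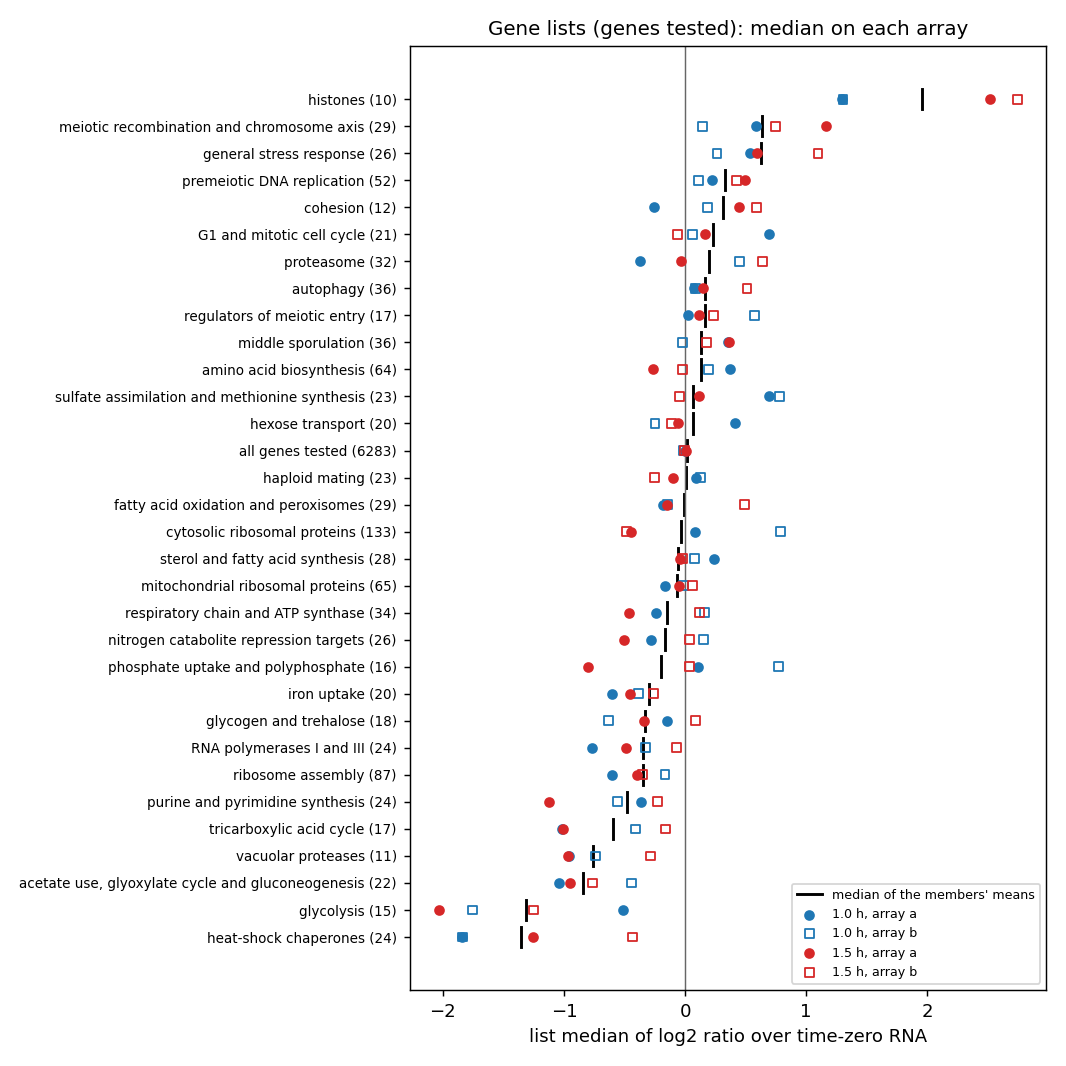
Median log2 ratio over time-zero RNA (x axis) of each of 31 gene lists and of all genes tested, with the number of genes tested in brackets. Coloured symbols are the 4 arrays and black bars the median of the members' means; histones stand highest (1.96), and glycolysis (-1.32) and heat-shock chaperones (-1.35) lowest.

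Genes of carbon metabolism lay low in both the glycolysis list and the list of acetate use, the glyoxylate cycle and gluconeogenesis. Of 15 glycolytic genes, 5 fell (33.3%, against 4.22% over all genes tested) and 0 rose. On all 4 arrays 12 lay below 0, against 18.8% over all genes, and the median was -1.32. CDC19, pyruvate kinase, averaged -2.21 ± 0.55, and the enolase genes ENO2 and ENO1 -2.17 ± 0.38 and -2.16 ± 0.33. FBA1, aldolase, lay at -0.84 and -2.93 at 1.0 h and at -3.36 and -1.45 at 1.5 h and averaged -2.14 ± 0.36 (limma adjusted p = 0.00917). For FBA1 and both enolases the 1.0 h a and 1.5 h b arrays were the least low, so the size differed between dye orientations in opposite ways at the 2 times. TDH2, a glyceraldehyde-3-phosphate dehydrogenase, averaged -1.78 ± 0.27 with arrays from -2.54 to -1.41. TPI1, triose phosphate isomerase, was the only member with a mean above 0, at 0.16 ± 0.47.

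Of 22 genes for acetate use, the glyoxylate cycle and gluconeogenesis, 5 fell (22.7%, against 4.22% over all genes tested), 0 rose, and the median was -0.84. JEN1, the lactate and pyruvate transporter, had 3 values, -3.29, -3.15 and -1.48, and averaged -2.80 ± 0.40. PCK1 and FBP1, the enzymes particular to glucose synthesis, lay at -2.67 ± 0.42 and -2.52 ± 0.49. ACH1, which moves coenzyme A between short acids including acetate, averaged -2.66 ± 0.55 on 3 arrays, and the acetaldehyde dehydrogenase gene ALD6 -1.58 ± 0.41. ICL1, isocitrate lyase of the glyoxylate cycle, lay below 0 on all 4 arrays and was not called, at -1.74 ± 0.50 (limma adjusted p = 0.0637). ACS1, the acetyl-CoA synthetase, averaged -0.25 ± 0.43 and MLS1, malate synthase, 0.17 ± 0.62.

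In the tricarboxylic acid cycle 4 of 17 genes fell (23.5%, against 4.22% over all genes tested) and 0 rose. The falls were KGD1, the succinate dehydrogenase genes SDH1 (-2.64 ± 0.49) and SDH2 (-1.91 ± 0.30), and the aconitase gene ACO1 (-2.03 ± 0.37). Of 34 genes of the respiratory chain and ATP synthase, 3 fell and 3 rose (8.82% each, against 4.22% and 3.28% over all genes tested). ATP2, the beta subunit partnering ATP1, lay at -3.31, -2.30, -2.51 and -2.82 and averaged -2.74 ± 0.50, and QCR2, a core subunit of complex III, averaged -1.68 ± 0.31. COX9, a small subunit of cytochrome oxidase, lay at 1.30, 2.64, 2.12 and 1.54 and averaged 1.90 ± 0.29 (limma adjusted p = 0.00703), and QCR8, a small subunit of complex III, averaged 1.64 ± 0.35. In complex III, QCR2 fell and QCR8 rose, and the list median was -0.15.

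CYC7, which encodes iso-2-cytochrome c, the isoform made at low oxygen and under stress, had the smallest adjusted p of the largest changes. Its arrays read 2.96, 3.72, 3.53 and 4.03, and it averaged 3.56 ± 0.31 (limma adjusted p = 0.00229). The later RNA was above background on 4 arrays and the time-zero RNA on 1. The arrays of time zero against itself read -0.86 and 0.31. CYC1, the major isoform, averaged -0.24 ± 0.60 with arrays from -1.34 to 0.70.

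Heat-shock chaperone genes lay low while several stress-response genes lay high. Of 24 chaperone genes, 7 fell (29.2%, against 4.22% over all genes tested) and 1 rose (4.17%, against 3.28%). On all 4 arrays 14 lay below 0, against 18.8% over all genes, and the median was -1.35. Beside SSC1, the falls included HSP60, the mitochondrial chaperonin, at -2.11 ± 0.28 (limma adjusted p = 0.00451), the inducible Hsp70 gene SSA4 at -2.67 ± 0.41, and HSP78, a mitochondrial disaggregase, at -2.10 ± 0.47. BTN2, an aggregate-sorting protein, was above background on 0 arrays in the later RNA and was at least 3.66-fold lower. The Hsp70 nucleotide exchange factor SSE1 and the co-chaperone STI1 averaged -1.69 ± 0.34 and -1.49 ± 0.40. The constitutive Hsp70 gene SSA2 was the exception, at 1.65 ± 0.39. The chaperone list read 0.78 on the 0.0 h a array and 0.10 on the 0.0 h b array, both above 0, whereas its medians on the 4 arrays ran from -1.84 to -0.43.

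Of 26 genes of the general stress response, 4 rose (15.4%, against 3.28% over all genes tested) and 0 fell, with a median of 0.63. Beside CYC7 the rises were PAI3, a cytoplasmic inhibitor of vacuolar proteinase A, at 2.38 ± 0.43, the mitochondrial thioredoxin gene TRX3 at 1.48 ± 0.31, and the cytoplasmic thioredoxin gene TRX2 at 1.58 ± 0.34. HSP12, a membrane-protecting stress protein, lay above 0 on all 4 arrays and was not called, at 2.07 ± 0.62 (limma adjusted p = 0.0714). Of 25 members with 4 values, 11 lay above 0 on every array and 4 below, against 17.9% and 18.8% over all genes. The 4 were SPI1, a cell wall stress gene, at -1.51 ± 0.42, GAD1 (-1.26), GRE1 (-1.23) and SOD2 (-0.67), and none was called.

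Several purine synthesis genes were also low. Of 24 purine and pyrimidine genes, 5 fell (20.8%, against 4.22% over all genes tested) and 0 rose, and all 5 were ADE genes, needed for purines. ADE17, which closes the purine ring, lay at -2.05, -3.24, -2.94 and -2.16 and averaged -2.59 ± 0.35 (limma adjusted p = 0.00451), with both RNAs above background on all 4 arrays. ADE57, ADE13, ADE3 and ADE1 averaged between -2.73 and -1.53. Other ADE genes were not called. ADE4 and ADE2 lay below 0 on all 4 arrays, whereas ADE6 lay above 0 on all 4 and averaged 0.32. ADE16 averaged 0.50, ADE8 -0.07 and ADE12 -0.31. The iron uptake oxidase gene FET3 fell by 2.28 ± 0.49 on the log2 scale. It was the only fall among 20 iron uptake genes (5%, against 4.22% over all genes tested). PRC1, carboxypeptidase Y, fell by 1.40 ± 0.31, as 1 of 11 vacuolar protease genes (9.09%).

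Among the rises, histone genes moved most as a group. Of 10 histone genes, 4 rose (40%, against 3.28% over all genes tested) and 0 fell. All 9 with 4 values lay above 0 on every array, against 17.9% over all genes, and the median was 1.96. HHF1, a histone H4 gene, lay at 1.62 and 2.28 at 1.0 h and at 3.23 and 3.90 at 1.5 h and averaged 2.76 ± 0.73 (limma adjusted p = 0.0476). HTA2, a histone H2A gene, lay at 1.82, 1.85, 3.01 and 2.97 and averaged 2.41 ± 0.55. HHT1 for histone H3 averaged 2.11 ± 0.44 and HTB1 for histone H2B 1.87 ± 0.35. The second histone H4 gene HHF2 had the highest mean of the list, 2.97 ± 0.83, and was not called. The 6 members not called averaged from 1.14 (HTA1) to 2.97, with adjusted p from 0.0572 upward.

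**Figure D3:**
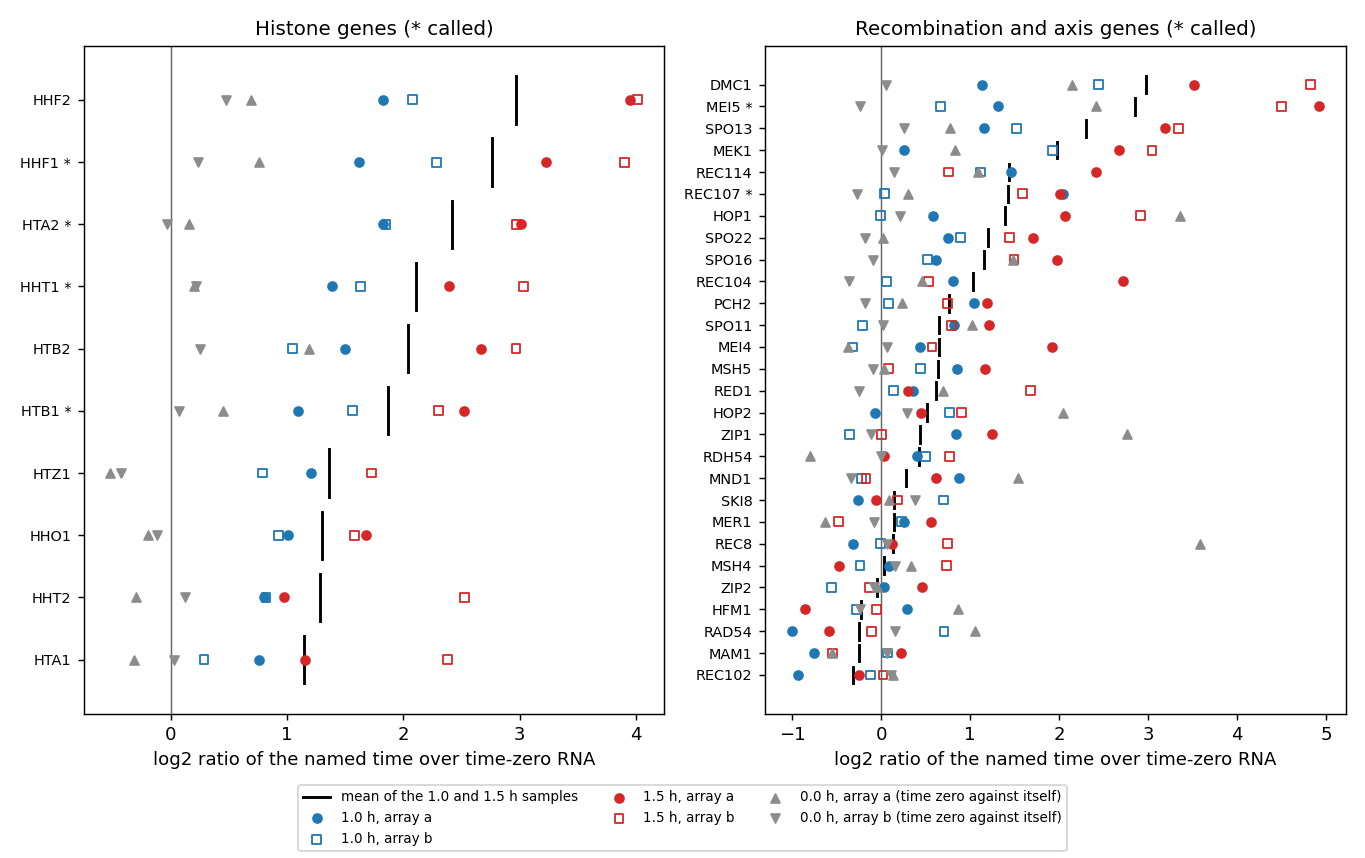
Log2 ratio over time-zero RNA (x axis) of 10 histone genes and 28 of the recombination and axis genes; asterisks mark called genes, coloured symbols the 4 arrays, black bars the mean of both samples and grey triangles time zero against itself. All 9 histone genes with 4 values had both 1.5 h arrays above both 1.0 h arrays, and the 0.0 h a array lay as high as 3.59 for REC8.

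Few genes of premeiotic DNA replication were called. Of 52 tested, 3 rose (5.77%, against 3.28% over all genes) and 1 fell (1.92%, against 4.22%). On all 4 arrays 16 lay above 0 and 4 below, against 17.9% and 18.8% over all genes, and the median was 0.33. The list medians ran from 0.11 to 0.50 on the 4 arrays, and time zero against itself read 0.21 on the a array, within that range, and 0.01 on the b array. RFA3, the smallest subunit of the single-strand binding protein RPA, lay at 1.98, 2.83, 3.25 and 3.23 and averaged 2.82 ± 0.49 (limma adjusted p = 0.0107). MCM3 of the replicative helicase averaged 1.47 ± 0.32, and read 0.52 and 0.73 on the arrays of time zero against itself; with that sample subtracted it averaged 0.85 ± 0.55. The third rise was SLD5 of the GINS complex, at 1.20 ± 0.31. POL30, the sliding clamp PCNA, averaged 1.50 ± 0.46 and RFA2, the middle RPA subunit, 1.76 ± 0.56; neither was called. The fall was RNR4, a small subunit of ribonucleotide reductase, at -1.86 ± 0.38.

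Of 29 recombination and chromosome axis genes, 3 rose (10.3%, against 3.28% over all genes tested) and 0 fell. On all 4 arrays 14 lay above 0 and 0 below, against 17.9% and 18.8% over all genes, and the median was 0.64. MEI5, whose product helps to load the recombinase Dmc1, read 1.31 and 0.66 at 1.0 h and 4.92 and 4.50 at 1.5 h and averaged 2.85 ± 0.75 (limma adjusted p = 0.0460). Its 1.5 h arrays stood far above its 1.0 h arrays, and the 0.0 h a array, which holds time-zero RNA in both channels, read 2.41 for it. The later RNA of MEI5 was above background on 2 of 4 arrays and the time-zero RNA on 1. REC107, required for double-strand break formation, averaged 1.42 ± 0.34. DMC1 had the highest mean of the list, with arrays at 1.13, 2.45, 3.52 and 4.83. It was not called, at 2.98 ± 0.88 (limma adjusted p = 0.0695).

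The list read a median of 0.70 on the 0.0 h a array and 0.00 on the 0.0 h b array, and its medians on the 4 arrays ran from 0.14 to 1.16, so time zero against itself lay within that range on the a array. On that array HOP1, an axis protein, read 3.36, REC8, the meiotic cohesin, 3.59, and ZIP1 of the synaptonemal complex 2.76. Its part in the list's values was not tested. NDJ1, which tethers telomeres to the nuclear envelope in meiosis, averaged 3.24 ± 0.82, with arrays at 1.72, 2.49, 5.09 and 3.68 and 2.88 on the 0.0 h a array. MPC54, a spindle pole body component on which spore membranes form, averaged 2.35 ± 0.59. It was the 1 of 36 middle sporulation genes called (2.78%, against 3.28% rises over all genes tested), and the median of that list was 0.13.

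Of 17 regulators of meiotic entry, 0 were called, against 3.28% rises and 4.22% falls over all genes tested. IME1, the master activator, lay at -1.18, 0.24, 0.86 and 0.72 and averaged 0.16 ± 0.85, and IME2, the kinase it induces, lay above 0 on all 4 arrays and averaged 1.67 ± 0.89. The 0.0 h a array read 2.41 for IME2. SLZ1, a partner of the methyltransferase Ime4, had the highest mean, 2.41 ± 1.25, and NDT80 averaged 0.28 ± 0.40 with both RNAs above background on 0 of 4 arrays. The haploid mating list had a median of 0.01 and 1 of 23 members called (4.35%, against 4.22% falls over all genes tested). It was MF(ALPHA)1, an alpha-factor gene, at -2.18 ± 0.46 with 1 of its 4 arrays above 0 (0.66). Ratios to time zero cannot show whether these genes were expressed at both times, so the list does not check the cell type. Time-zero RNA was above background on 4 arrays for FUS3 and 3 for STE3, and on 0 for others such as STE2 and AGA1.

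Nitrogen and sulfur genes were mixed. Of 26 targets of nitrogen catabolite repression, the system that shuts off use of poor nitrogen sources, 5 rose and 2 fell. These were 19.2% and 7.69%, against 3.28% and 4.22% over all genes tested, and the list median was -0.17. MEP2, the high-affinity ammonium permease, lay at 3.79, 4.01, 2.34 and 3.30 and averaged 3.36 ± 0.45 (limma adjusted p = 0.00451). The allantoate permease gene DAL5 averaged 2.27 ± 0.53, the allantoin permease gene DAL4 was at least 2.04-fold higher, DAL7, a malate synthase, averaged 1.68 ± 0.36, and the activator gene GAT1 1.50 ± 0.35. The repressor gene DAL80 averaged -2.37 ± 0.33 and GLN1, glutamine synthetase, -2.14 ± 0.43.

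Of 64 amino acid biosynthesis genes, 3 rose (4.69%, against 3.28% over all genes tested) and 1 fell (1.56%, against 4.22%). HIS3 of the histidine pathway averaged 2.17 ± 0.45, the glutamate synthase gene GLT1 1.63 ± 0.34 and LYS1 of the lysine pathway 1.53 ± 0.35. The fall was the asparagine synthetase gene ASN2, at -1.99 ± 0.38. MET28, a transcription factor of sulfur metabolism, read from 2.01 to 2.94 and was at least 4.85-fold higher, its time-zero RNA being above background on 0 arrays. MET3, ATP sulfurylase, averaged 1.94 ± 0.43. CYS4, cystathionine beta-synthase, averaged -2.03 ± 0.33. The phosphate-regulated gene PHM6 was at least 2.73-fold higher, as 1 of 16 phosphate genes (6.25%, against 3.28% over all genes tested). The fatty acid elongase gene ELO1 averaged 1.75 ± 0.34.

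The remaining large rises fall in no single list. YBR116C, an array identifier without a gene in the reference table, lay at 4.74, 2.09, 4.37 and 4.70 and averaged 3.98 ± 0.59 (limma adjusted p = 0.00688). CRS5, a copper-binding metallothionein, lay at 3.93, 3.08, 4.36 and 3.44 and averaged 3.70 ± 0.55, with -1.84 on the 0.0 h a array. SOL4, a 6-phosphogluconolactonase of the pentose phosphate pathway, averaged 2.59 ± 0.47, DYN2, the dynein light chain, 2.48 ± 0.31, and YDR094W, again without a gene in the table, 2.44 ± 0.59. Across all 206 rises, 158 had the later RNA above background on all 4 arrays, and 19 had time-zero RNA above background on 0.

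Whether the levels moved between 1.0 and 1.5 h was asked next. Each time is a lone sample here, assumed to vary like the other groups, and the limma contrast passed for 0 genes, 50 having an unadjusted p below 0.05. The values can be described by whether both arrays of 1.5 h lay above, or below, both arrays of 1.0 h; the a and b arrays repeat the same RNA. Over all genes 819 (13.1%) lay above without overlap and 795 (12.8%) below. All 9 histone genes with 4 values lay above, and the list median went from 1.30 to 2.56. HHF2 went from 1.95 to 3.98.

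Of 133 cytosolic ribosomal protein genes, 73 lay below and 3 above. Over all genes the shares were 12.8% and 13.1%, which also apply to the lists that follow. The median of the ribosomal protein list went from 0.41 to -0.52. Array by array that median read 0.08 and 0.79 at 1.0 h, and -0.45 and -0.48 at 1.5 h. Amino acid biosynthesis genes lay below in 29 of 61 and above in 3. Heat-shock chaperone genes lay above in 10 of 23 and below in 0, as the list median went from -1.75 to -0.79. Recombination genes lay above in 9 of 29 and below in 0, among them MEI5, which went from 0.99 to 4.71. The later RNA of MEI5 was above background on 2 of the 4 arrays.

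**Figure D4:**
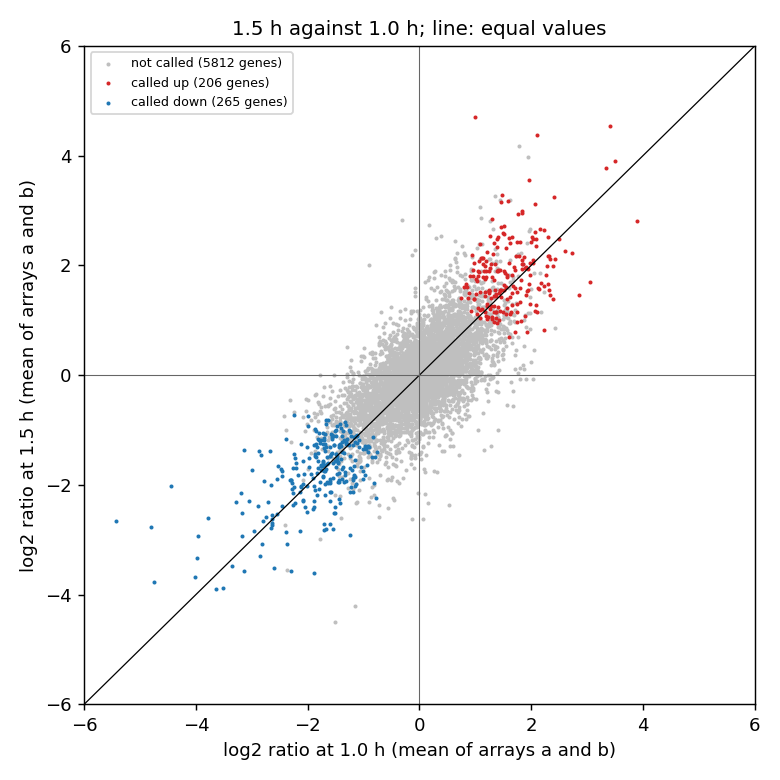
Log2 ratio over time-zero RNA at 1.0 h (x axis) and at 1.5 h (y axis) for each gene tested, as the mean of arrays a and b; red and blue mark the 206 rises and 265 falls called from the mean of both times, and the line marks equal values. The test of 1.5 h against 1.0 h called 0 genes.

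The values were also set against the neighbouring times, which share time-zero RNA and, with 0.5 h, rest on a lone sample. The 0.5 h values used here correlated across genes with the authors' own 0.5 h ratios at r = 0.16 only. At 1.0 and 1.5 h that correlation was 0.93 and 0.95. Against 0.5 h the test passed for 3 genes, 477 having an unadjusted p below 0.05, and 0 without either sample or without the 5.0 to 6.0 h samples. CYS4 differed from 0.5 h by -4.28 ± 0.58 (limma adjusted p = 0.0468), having read 2.25 at 0.5 h, -1.54 at 1.0 h and -2.52 at 1.5 h. YKR012C was at 6.69 at 0.5 h and at 1.09 and 2.13 here. Its time-zero RNA was above background on 0 of the 4 arrays of 1.0 and 1.5 h, so these ratios rest on a dim reference, and the later RNA was at least 2.97-fold higher there. YGR190C was at -3.20 at 0.5 h and at 0.27 and 0.52 here, with time-zero RNA above background on 1 array and the later RNA on 2. Both are array identifiers without a gene in the reference table. The sulfate and methionine list went from a median of 2.18 at 0.5 h to 0.47 and 0.06, and the phosphate list from 1.29 to 0.24 and -0.35.

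Against 2.0 and 2.5 h limma called 4 genes, with 669 at an unadjusted p below 0.05, and 0 without any 1 of the 4 samples compared or without the 5.0 to 6.0 h samples. CYC7 read 0.21 and 0.13 at 2.0 and 2.5 h after 3.34 and 3.78, a difference of 3.39 ± 0.44 (limma adjusted p = 0.0478). EFT1 read -3.98 and -3.33 at 1.0 and 1.5 h and -0.25 and 0.89 afterwards. TDH2 read -1.60 and -1.97 and then 1.28 and 0.68. HAC1, the transcription factor of the unfolded protein response, read -1.48 and -1.55 and then 1.29 and 0.95. The a and b arrays correlated across genes with r = 0.19 at 2.0 h and 0.19 at 2.5 h, against 0.42 and 0.58 at 1.0 and 1.5 h. On the b arrays of 2.0 and 2.5 h the time-zero RNA was above background for 20.7% and 17.6% of genes. All readings at 2.0 and 2.5 h, including the medians that follow, carry this limit. The 206 rises had sample medians of 0.31, 1.51, 1.78, 0.72 and 0.38 from 0.5 to 2.5 h, and the 265 falls -0.62, -1.68, -1.69, -0.75 and -0.38; since the genes were chosen at 1.0 and 1.5 h, these medians are a description.

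**Figure D5:**
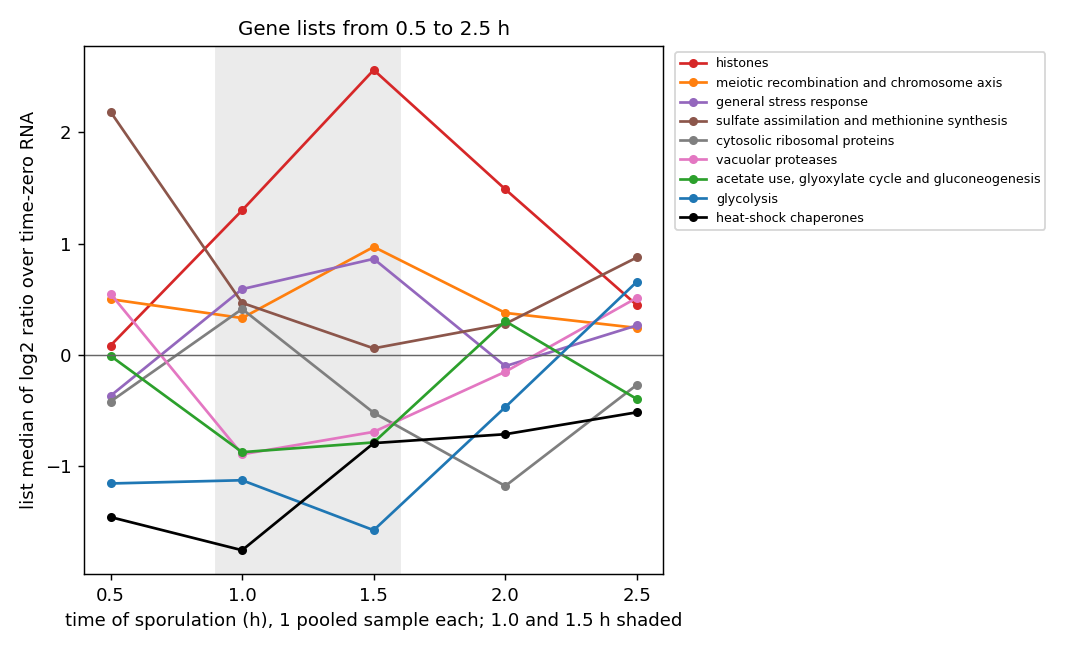
List medians of the log2 ratio over time-zero RNA (y axis) at 0.5, 1.0, 1.5, 2.0 and 2.5 h (x axis), 1 pooled sample per time, with 1.0 and 1.5 h shaded. Histones peak at 2.56 at 1.5 h, and the acetate and gluconeogenesis list lies at -0.87 and -0.79 at 1.0 and 1.5 h against -0.01 at 0.5 h and -0.40 at 2.5 h; at 2.0 h it lies at 0.30, its arrays reading -0.72 (a) and 1.07 (b).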

How the data were processed

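For each spot the deposited files give an intensity per channel, its local background and marks. Per the file headers the intensity values come from 2 scans of each array; the software settings are not stated there. The intensity was used without further background subtraction, since some values are negative. The labels place the later RNA in Cy5 on a arrays and Cy3 on b arrays. The file headers of b arrays list the time-zero (Cy5) image first, so the order of channels was also checked on the values: with b arrays turned, 36 middle sporulation genes had medians of 4.57 and 5.59 on the a and b arrays of 5.5 h. At 5.0 h they read -0.18 and 6.07, at 6.0 h 7.23 and 0.09, and at 3.5 h 0.24 and 2.83, so those times do not settle the order and it rests on 5.5 h and on the authors' table. The b arrays of 1.0 and 1.5 h correlated across genes with the authors' table at r = 0.80 and 0.87. The authors' series table gives a log2 ratio for each gene at each time, with scale and centring not stated; it correlated with the values used here at r = 0.93 and 0.95, had column medians of 0.02 and 0.01, and served as an alternative.

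Control spots, spots marked U or Z and spots at or below 0 were left out. Log2 ratios were loess-corrected per array (span 0.3, 4 iterations), spots of a gene averaged, and a and b arrays averaged to 1 sample as technical repeats. With R 4.3.3 and limma 3.58.1, group means of 12 samples were fitted with 5 residual degrees of freedom and Benjamini-Hochberg adjustment; the code was tested on simulated data. The number of arrays limits the precision.

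Of 6293 array genes, 6283 could be tested. The R64 table named 5716 identifiers by locus tag and 18 by older name; 559 kept the array identifier. Named genes are the 12 largest called rises and 12 largest called falls with 1 sign on 4 arrays, up to 5 called per direction in other comparisons, and up to 4 members with the smallest p per list; other members, all in these lists, were named after their values were seen. The gene lists and members were chosen with earlier results of these data known. Alternatives covered the control, samples in the fit, weights, variance prior, background, normalisation, marked spots, dim genes, dye orientation, left-out samples and the authors' table; blank-spot subtraction, smaller fits with the 0.0 h sample subtracted restriction to genes on 4 arrays and leaving out the 5.0 to 6.0 h samples were added after seeing the data. No sequences or coordinates are given. Some members of the lists are counted but not reported here by name.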

Additional observations from a re-analysis of the deposited data

Results flagged for a closer look

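The differences from neighbouring times that passed the limma test, each a difference of log2 ratios, were as follows. Against 0.5 h, CYS4 was at -4.28 ± 0.58, YKR012C at -5.08 ± 0.69 and YGR190C at 3.59 ± 0.49. For YKR012C the time-zero RNA was above background on 0 of the 4 arrays of 1.0 and 1.5 h, so its ratios rest on a dim reference. YGR190C was not called against time zero, and its difference rests on the lone 0.5 h sample, at -3.20. Against 2.0 and 2.5 h, CYC7 was at 3.39 ± 0.44, EFT1 at -3.97 ± 0.52, TDH2 at -2.76 ± 0.39 and HAC1 at -2.63 ± 0.38. The a and b arrays correlated across genes with r = 0.19 only, both at 2.0 h and at 2.5 h. Adjusted p lay between 0.0468 and 0.0482 for all 7.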

How the results depend on the processing

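Counts of calls depended on the fit. Against the main 471 genes over time zero, limma called 0 with the 0.0 h sample subtracted, and, in fits with that subtraction, 56 with 3 samples and 0 with 6 samples; the construction differs in carrying the spread of the lone 0.0 h sample. It called 1417 with only the samples compared, 727 with the samples up to 2.5 h, 742 without the 5.0 to 6.0 h samples, 1433 with sample weights, 807 with normexp, 64 with median centring, 23 on a arrays alone, 0 on b arrays alone, and 96 with the blank-spot median subtracted; the cause was not tested. Leaving out either sample gave 0 calls. The remaining alternatives gave 393 to 681. Of 90 named called genes, none reversed under any alternative. They were chosen on these arrays for ratios away from 0, and some alternatives change only the spread, so this says little about robustness. Under median centring 33 kept their call, as did 29 of 85 with blanks subtracted and 72 of 82 in the authors' table. Genes with 1 sign on all 4 arrays numbered 2290, 1039 with blanks subtracted, and 3717 to 4060 with 1 sample of 2 arrays. For 1.5 h against 1.0 h all 14 alternatives called 0, with 18 to 275 genes at an unadjusted p below 0.05. Against 0.5 h, 3 calls became 52 with only the samples compared, 0 with the samples up to 2.5 h, 0 without the 5.0 to 6.0 h samples, 12 with weights, 0 with median centring, 14 with scaling, 0 without S-marked spots, 0 on a arrays, 1 on b arrays, 0 in the authors' table, 0 with blanks subtracted and 0 without any 1 sample. Against 2.0 and 2.5 h, 4 calls became 0 with only the samples compared, 0 with the samples up to 2.5 h, 0 without the 5.0 to 6.0 h samples, 22 with weights, 0 with an intensity trend, 7 with normexp, 0 with median centring, 16 with scaling, 0 without S-marked spots, 2 without dim genes, 0 on a arrays, 0 on b arrays, 0 in the authors' table, 0 with blanks subtracted and 0 without any 1 sample. The list medians of histones, heat-shock chaperones and glycolysis kept their sign under all 13 alternatives, from 1.30 to 2.56, -1.75 to -0.79 and -1.92 to -1.08; that of cytosolic ribosomal proteins kept it in 9, from -0.52 to 0.41. A fit of 1.5 h against 1.0 h to its own samples was not run, as it has no residual degrees of freedom. The authors' 0.5 h column followed the 0.5 h arrays at r = 0.16 only. No paired analysis was possible because the labels give no replicate numbers shared between groups.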
